A study of Rattus norvegicus with 8 samples.

Results

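The 10 genes described here encode the TGF-beta ligands (Tgfb1, Tgfb2, Tgfb3), their receptors (Tgfbr1, Tgfbr2, Tgfbr3), the activin A subunit (Inhba), the latent TGF-beta binding proteins (Ltbp1, Ltbp2) and the inhibitor Smad7. They were chosen by symbol, and all 10 were found among the 37209 genes of the deposited count table. All 10 had enough reads for the test, as did 14359 genes in all. mRNA was sequenced from 4 balloon-injured left carotid arteries and 4 undamaged right carotid arteries of male Sprague-Dawley rats, harvested 2 weeks after surgery. The control is the other carotid artery of an operated animal, which the study's methods call the self-control. Both groups thus come from rats that underwent surgery. The labels do not say which injured and control arteries came from the same rat, and the main tests treated the arteries as unpaired. No source used here says that a layer of the wall was dissected. The label of the RNA extraction names prefrontal cortex, whereas the tissue labels name the carotid artery.

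TGF-beta is secreted in a latent complex, in which its propeptide holds the ligand and a latent TGF-beta binding protein ties the complex to the extracellular matrix. Once released, the ligand binds the type II receptor TGFBR2, which recruits and phosphorylates the type I receptor TGFBR1, and the kinase then phosphorylates SMAD2 and SMAD3, which enter the nucleus with SMAD4. Activin A, a dimer of the chain encoded by Inhba, signals through activin receptors to the same SMADs. In the artery wall this pathway is known for driving matrix synthesis by vascular smooth muscle cells (VSMCs) and for its part in neointima formation after balloon injury.

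Among the 10 members, Tgfb1 was the 1 gene that was called, with 2.61-fold more mRNA after injury. This share is near that of all genes tested, of which 10.9% were called. The mRNA of the type II receptor Tgfbr2 was 1.67-fold higher and passed the false discovery rate (FDR) but not the fold criterion, and Tgfbr1 was 1.61-fold higher at an FDR just over the threshold. Tgfb2, Tgfb3, Tgfbr3, Ltbp1 and Smad7 had negative log2 fold changes, and none of them passed the test with all 8 arteries. Beyond the members, Inhbb, Gdf11, Fbn2, Thbs1, Nrros and Tgif1 were upregulated and the activin antagonist Fstl3 was downregulated, while Smad2, Smad3 and Smad4 were not called. In the 8 fits with 1 artery removed, Thbs1 was called in 2 and Fstl3 in 3, and the other called genes named here in all 8.

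Before the values, the promoters of Tgfb1, Tgfbr1 and Tgfbr2 are shown because these are the members whose mRNA levels did not overlap between injured and control arteries. The sequences are those of RefSeq on the GRCr8 build, 250 bases before to 50 after the start of the gene, and all 10 members had one. Capitals mark the GC box GGGCGG, searched on both strands.
Tgfb1, chr1:90324062-90324361, + strand: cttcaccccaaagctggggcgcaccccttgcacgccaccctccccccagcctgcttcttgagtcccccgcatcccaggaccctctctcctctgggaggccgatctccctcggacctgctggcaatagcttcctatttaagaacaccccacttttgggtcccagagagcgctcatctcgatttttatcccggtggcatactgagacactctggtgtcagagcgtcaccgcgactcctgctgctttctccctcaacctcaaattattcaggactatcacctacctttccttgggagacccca
Tgfbr1, chr5:66449148-66449447, + strand: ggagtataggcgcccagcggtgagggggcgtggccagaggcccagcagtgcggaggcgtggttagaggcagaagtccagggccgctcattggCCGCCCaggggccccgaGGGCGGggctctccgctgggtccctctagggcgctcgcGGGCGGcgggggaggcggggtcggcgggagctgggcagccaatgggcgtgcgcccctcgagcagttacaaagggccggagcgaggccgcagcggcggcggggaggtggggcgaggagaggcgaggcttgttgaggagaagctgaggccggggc
Tgfbr2, chr8:124761420-124761719, - strand: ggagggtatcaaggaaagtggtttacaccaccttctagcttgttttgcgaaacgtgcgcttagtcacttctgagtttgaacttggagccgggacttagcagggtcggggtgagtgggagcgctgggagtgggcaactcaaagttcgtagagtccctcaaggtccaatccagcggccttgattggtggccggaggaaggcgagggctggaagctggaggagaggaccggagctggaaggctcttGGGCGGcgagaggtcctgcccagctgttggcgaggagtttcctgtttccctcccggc

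The Tgfbr1 promoter held 3 GC boxes and that of Tgfbr2 held 1, whereas none was found in that of Tgfb1. Of the 10 members, 5 had a GC box, against 34.9% of 27457 promoters of the same length. The SMAD box CAGAC was found in 3 members (Inhba, Ltbp1 and Ltbp2), against 50% of promoters. The TATA box TATAAA was found in Inhba and in 14.3% of promoters, and the cAMP response element TGACGTCA in Ltbp1 and in 1.91%. The AP-1 site TGANTCA was in none of the 10 and in 7.33% of promoters. These are matches of letters on either strand, and none of the matches overlapped in the 3 sequences shown.

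The libraries held 11459632 to 16658089 counts, and 3 counts, the smallest level that a library can show, correspond to 0.18 to 0.262 CPM (read counts relative to the library total after TMM scaling), a floor for counting error only. Every member had at least 401 counts in every library, far above that floor. Control artery 4 stood apart, as its log2 CPM correlated with those of controls 1 to 3 at 0.83 to 0.852 across genes, while controls 1 to 3 correlated with each other at 0.976 to 0.978. The summed level of 9 sympathetic neuron markers was 8993 CPM in control artery 4 and at most 4.71 CPM in the other controls. It was 1985 CPM in injured artery 3, 137 CPM in injured artery 1 and at most 15.1 CPM in the other injured arteries. Of the VSMC markers, 5 of 8 tested genes were downregulated after injury, and their summed level was 17429 to 50551 CPM in controls and 10558 to 16609 CPM in injured arteries, so markers of the labelled tissue were abundant in every library. Of 10 macrophage markers 9 were upregulated, with a summed level of 189.9 to 289 CPM in controls and 1758 to 2630 CPM after injury. The 7 proliferation markers were all upregulated, as were 5 of 7 skeletal muscle, 4 of 5 tested cartilage and 2 of 6 T cell markers, and 1 of 3 tested brain markers (the others had too few reads). The 8 brain markers listed summed to 49.9 CPM in control artery 4 and at most 6.4 CPM in the other controls. In injured arteries 1 to 4 the brain markers summed to 52.3, 12.1, 205 and 54.2 CPM. Endothelial markers were divided, with 2 of 7 upregulated and 1 downregulated, and so were fibroblast markers, with 1 of 6 upregulated and 2 downregulated. No Schwann cell, adipocyte, sympathetic neuron or platelet marker was called by edgeR, with 1 adipocyte and 1 platelet marker at an unadjusted p under 0.05 and called by DESeq2, and of 7 platelet markers 2 had enough reads to be tested. In bulk artery RNA, fewer cells of a type and less RNA per cell cannot be told apart.

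For the members themselves, control artery 4 had the lowest CPM of the 4 controls for all 10 genes, which held for 39.9% of all genes tested. Its level was 0.347 to 0.715 of the median of the other controls, whereas the median gene had a ratio of 0.993. Member values are therefore also given without this artery, and the part of the sympathetic neuron RNA in them was not tested.

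**Figure D1:**
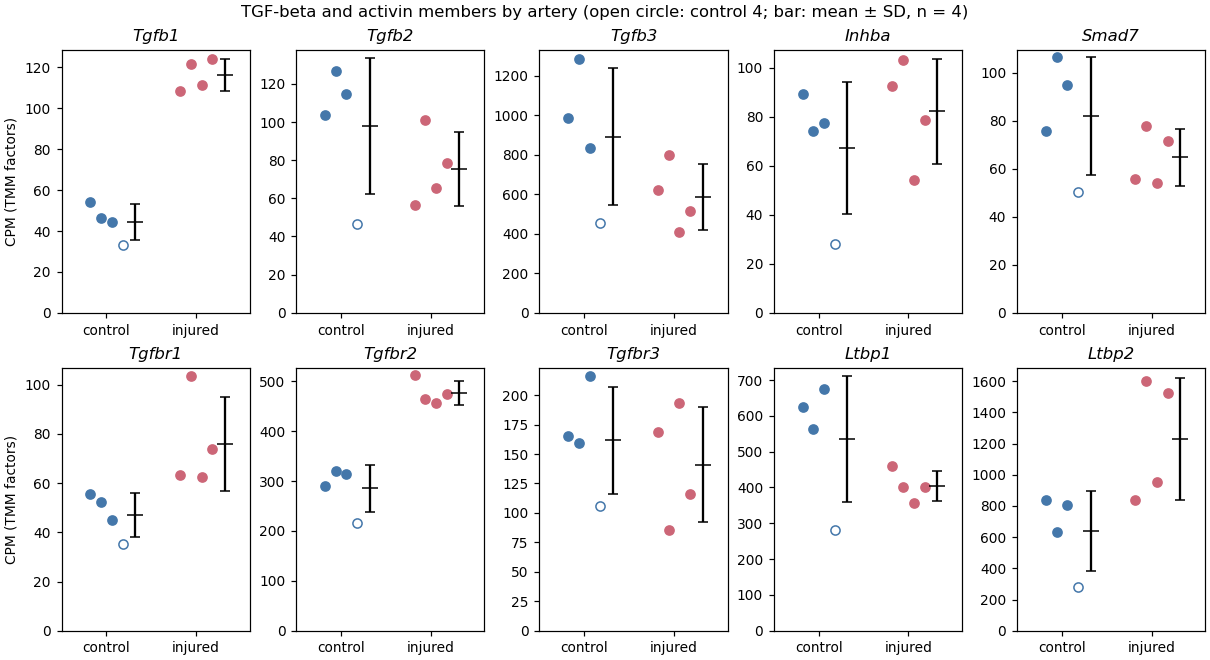
CPM of the 10 members (vertical axes start at 0) in each control (blue) and injured (red) artery, with the mean ± SD of 4 arteries per group as a black bar and control artery 4 as an open circle. Injured and control arteries do not overlap for Tgfb1, Tgfbr1 and Tgfbr2, and control artery 4 is the lowest control in every panel.

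The comparison between injured and control arteries addressed how the mRNA of each member differed 2 weeks after intimal injury. TGFB1, the isoform best known for matrix production, had 54.4, 46.2, 44.5 and 33.0 CPM of its mRNA in controls 1 to 4. In injured arteries 1 to 4 it had 108, 122, 111 and 124 CPM. All injured arteries lay above all controls, and the injured arteries were close to each other. The mean was 44.5 ± 8.80 CPM (SD, n = 4) in controls and 116 ± 7.65 CPM (SD, n = 4) after injury, a log2 fold change of 1.39 (SE 0.16, edgeR FDR 0.00111). The FDR is the p of edgeR's quasi-likelihood test after Benjamini-Hochberg adjustment over all genes tested. Genes were called at an FDR under 0.05 together with a fold change above 2, and 10.9% of all genes tested were called, 8.31% upward and 2.57% downward. The 1 called member of 10 is a share near that background. With control artery 4 left out Tgfb1 stood at 1.26 on the log2 scale, and DESeq2 also called Tgfb1 and no other member, where 12.9% of all genes were called. Macrophage markers rose with Tgfb1, from at most 289 to at least 1758 CPM in sum, while the 7 platelet markers summed to 5.28 to 18.4 CPM in controls and 18.96 to 26.6 CPM after injury, with Gp1bb at 0 and Gp1ba, Gp9, Ppbp and Gp6 at most 0.409 CPM in every library. The platelet sum was mostly Pf4, with a mean of 8.39 CPM in controls and 17.4 CPM after injury (edgeR FDR 0.115). Itga2b had means of 3.47 and 4.31 CPM (edgeR FDR 0.623), and both genes overlapped between groups. The part of macrophages and platelets in the level of Tgfb1 was not tested.

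Tgfb2 and Tgfb3 encode the other TGF-beta isoforms, which bind the same receptors, TGFB2 with more need of the coreceptor. For Tgfb3, controls 1 to 4 had 987, 1286, 836 and 456 CPM, and injured arteries 1 to 4 had 619.65, 798, 407 and 515 CPM. The groups overlapped through control artery 4, and every injured artery lay below controls 1 to 3. Its log2 fold change was -0.61 (SE 0.33, edgeR FDR 0.257), and -0.83 (SE 0.24, edgeR FDR 0.0328) without control artery 4. For Tgfb2, controls 1 to 4 had 104, 127, 115 and 46.4 CPM, against 56.6, 101, 65.5 and 78.7 CPM in injured arteries 1 to 4. Again controls 1 to 3 lay above all injured arteries and control artery 4 below them. Its log2 fold change was -0.38 (SE 0.31, edgeR FDR 0.462), and -0.61 (SE 0.19, edgeR FDR 0.043) without control artery 4. Both values without this artery passed the FDR but stayed under a fold change of 2. In that fit 29.9% of all genes passed the FDR alone and 16.2% were called, against 17.2% and 10.9% with all arteries.

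The activin A subunit Inhba had 89.2, 74.0, 77.2 and 27.9 CPM in controls 1 to 4 and 92.6, 103, 54.0 and 78.5 CPM in injured arteries 1 to 4. The groups overlapped widely, and injured artery 3 lay below 3 of the controls. The log2 fold change was 0.29 (SE 0.35, edgeR FDR 0.618) and 0.03 without control artery 4, so a change in Inhba was not detectable here.

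TGFBR2 is the kinase that binds the ligand, and its mRNA had 290 CPM in control 1, 320 in control 2, 315 in control 3 and 217 in control 4. After injury it had 512, 464, 457 and 474 CPM in arteries 1 to 4. Every injured artery lay above every control, and the means were 285 ± 47.5 CPM and 477 ± 24.4 CPM (SD, n = 4 each). The log2 fold change was 0.74 (SE 0.15, edgeR FDR 0.0125), which passed the FDR and not the fold criterion. TGFBR1, also called ALK5, is the type I kinase, with 55.5, 52.2, 45.2 and 35.3 CPM of its mRNA in controls 1 to 4 and 63.4, 103, 62.3 and 74.0 CPM in injured arteries 1 to 4. The groups did not overlap, although injured arteries 1 and 3 lay close to the highest control. Its log2 fold change was 0.69 (SE 0.21, edgeR FDR 0.0567). The groups of 3 members (Tgfb1, Tgfbr1 and Tgfbr2) were fully apart upward and of none downward, against 14.2% and 9.51% of all genes.

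TGFBR3, or betaglycan, is a coreceptor without a kinase that presents ligand, and it also binds inhibin. Its mRNA had 165, 159, 217 and 106 CPM in controls 1 to 4. In injured arteries 1 to 4 it had 169, 85.7, 194 and 116 CPM. Injured arteries 1, 3 and 4 lay within the range of the controls and injured artery 2 below it. For Tgfbr3 the log2 fold change was -0.20 (SE 0.30, edgeR FDR 0.693), and it passed no threshold without control artery 4 (-0.36, edgeR FDR 0.354).

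LTBP1 binds the latent ligand covalently, while LTBP2 is a matrix protein of the same family that does not bind latent TGF-beta. Ltbp2 had 840 CPM in control 1, 635 in control 2, 805 in control 3 and 279 in control 4, and 838, 1604, 953 and 1522 CPM in injured arteries 1 to 4. Injured artery 1 was level with control 1, and injured arteries 2 and 4 were well above all others. The log2 fold change of 0.94 (SE 0.37) was not called (edgeR FDR 0.128). For Ltbp1, controls 1 to 4 had 626, 564, 674 and 281 CPM, and injured arteries 1 to 4 had 459, 402, 355 and 401 CPM. All injured arteries lay below controls 1 to 3 and above control 4. For Ltbp1 this gave a log2 fold change of -0.41 (SE 0.26, edgeR FDR 0.334) with all arteries and -0.63 (SE 0.12, edgeR FDR 0.00582) without control artery 4.

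SMAD7 binds the activated type I receptor and blocks SMAD2 and SMAD3, and its gene is induced by TGF-beta. Smad7 had 75.8, 107, 95.0 and 50.4 CPM in controls 1 to 4 and 55.7, 78.1, 54.1 and 71.8 CPM in injured arteries 1 to 4. The groups overlapped, and the log2 fold change was -0.34 (SE 0.24, edgeR FDR 0.386). Without control artery 4 it was -0.52 at an edgeR FDR of 0.0528. Over the 10 members, 5 log2 fold changes were positive and the median was 0.05, against -0.06 over all genes tested.

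**Figure D2:**
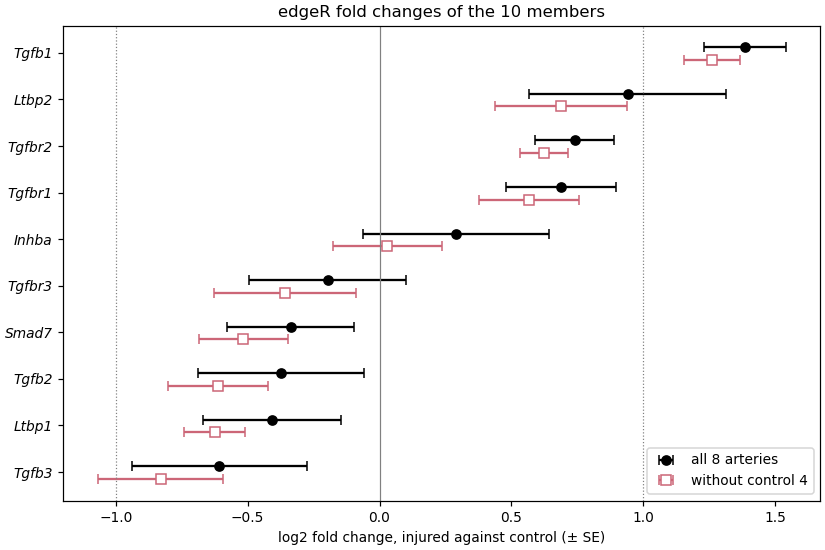
Log2 fold change (horizontal axis, positive is higher after injury) with its SE for the 10 members, from all 8 arteries (black) and without control artery 4 (red). Dotted lines mark a fold change of 2. Tgfb1 lies beyond the upper line in both fits, and all 10 members lie lower without control artery 4.

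Leaving out control artery 4 together with injured artery 3, the libraries with the most sympathetic neuron RNA, again left Tgfb1 as the 1 called member, at 1.29 on the log2 scale (edgeR FDR 0.000174). In that fit Tgfb3, Tgfbr1, Tgfbr2, Ltbp1 and Ltbp2 passed the FDR without reaching a fold change of 2, at -0.69, 0.65, 0.65, -0.56 and 0.80 on the log2 scale. Of all genes tested in that fit, 34.8% passed the FDR alone and 17.2% were called. This choice was made after the values of the marker genes were seen.

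Whether members moved apart was measured with 8 ratios of read counts within a library, which do not depend on the scaling between libraries. A ratio of counts compares changes between genes and not their levels, because the genes differ in length. For Tgfb3 against Tgfb1, the ratio was 18.1, 27.8, 18.8 and 13.8 in controls 1 to 4 and 5.72, 6.55, 3.65 and 4.16 in injured arteries 1 to 4. The mean log2 ratio was -1.96 (SE 0.29) in injured minus control arteries. For Tgfb2 against Tgfb1, it was 1.91, 2.74, 2.58 and 1.41 in controls 1 to 4, and 0.523, 0.8291, 0.588 and 0.636 in injured arteries 1 to 4, a difference of -1.72 (SE 0.26) on the log2 scale. Reads of Tgfb2 thus outnumbered those of Tgfb1 in every control and were fewer in every injured artery. The ratio of Tgfb3 to Tgfb2 differed by -0.24 (SE 0.21) and overlapped between groups (p = 0.314, exact permutation test).

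The ratio of Ltbp2 to Ltbp1 was 1.34, 1.12, 1.19 and 0.994 in controls 1 to 4 and 1.83, 3.99, 2.68 and 3.79 in injured arteries 1 to 4. It was higher in every injured artery, by 1.34 (SE 0.28) on the log2 scale. The ratio of Tgfbr3 to Tgfbr2 was lower in every injured artery, at 0.185 to 0.424 against 0.487 to 0.688 in controls, a log2 difference of -0.98 (SE 0.28). The ratio of Tgfbr1 to Tgfbr2 differed by -0.08 (SE 0.20) on the log2 scale and overlapped (p = 0.686, exact permutation test). The ratios of Tgfb3 to Tgfb1, Tgfb2 to Tgfb1, Tgfbr3 to Tgfbr2 and Ltbp2 to Ltbp1 were fully apart between the groups. Control artery 4 lay on the side of the other controls in these ratios, although it was the lowest control in each. Each of these 4 ratios had p = 0.0286 in the exact permutation test, 2-sided, the smallest possible, and 0.0571 after Benjamini-Hochberg adjustment over the 8 ratios, so none passed the threshold after adjustment. Inhba against Tgfb1 differed by -1.03 (SE 0.31, p = 0.0857, exact permutation test) and Inhba against Fst by 0.29 (SE 0.47, p = 0.629, exact permutation test).

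**Figure D3:**
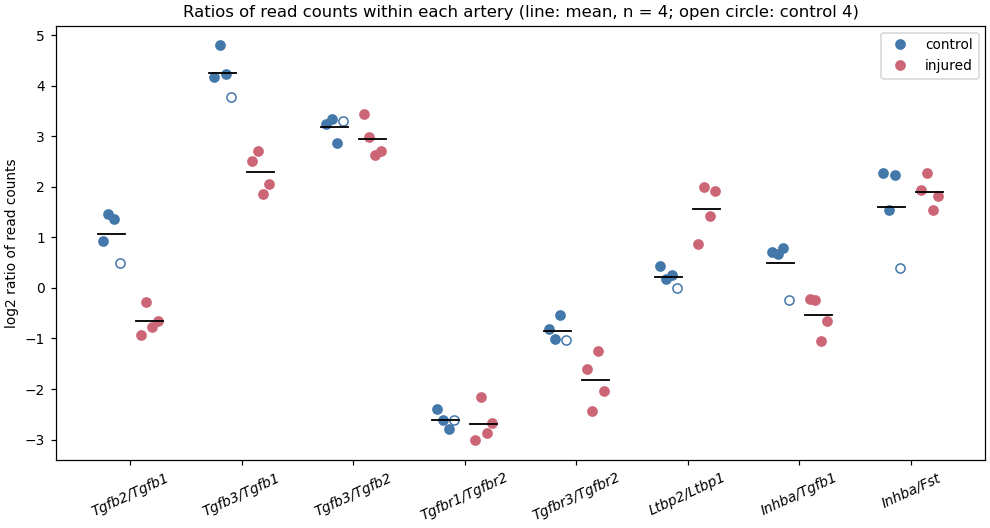
Log2 ratio of the read counts of 2 genes within each control (blue) and injured (red) artery, with the mean of 4 arteries as a line and control artery 4 as an open circle. The groups are fully apart for Tgfb2/Tgfb1, Tgfb3/Tgfb1, Tgfbr3/Tgfbr2 and Ltbp2/Ltbp1, and they overlap for the other 4 ratios.

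By the root mean square difference between log2 CPM profiles over the 8 arteries, each centred on its own mean, the genes most like Tgfb1 were Cmtm3 (0.12), Tifa (0.13) and Ifi30 (0.13), where the median gene differed by 0.83. All of them were called, with log2 fold changes of 1.45, 1.31 and 1.198, which largely follows from choosing them by their likeness to Tgfb1. The genes most like Tgfb3, the member with the lowest log2 fold change, were Hmgn1 (0.13), Ccdc117 (0.14) and Hmgn5b (0.15), against a median of 0.65. None of these 3 was called, which likewise largely follows from the choice, as Tgfb3 was not called.

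Other genes of the pathway were described in 5 lists with 65 genes in all, of which 64 matched the table and 58 had enough reads. Of these, 14 genes were called, 9 upregulated and 5 downregulated, which is 24.1% against 10.9% of all genes, and their median log2 fold change was -0.06. With control artery 4 left out, 17 were called, in a fit where 16.2% of all genes were called. The lists hold matrix and VSMC genes that also belong to other processes.

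In latency and activation, 3 of 13 tested genes were upregulated and none downregulated by edgeR, against 8.31% and 2.57% of all genes tested. Fbn2, a fibrillin to which latent complexes can attach, had 9 to 53 counts in controls and 400 to 839 in injured arteries, a rise of 4.15 on the log2 scale (SE 0.59, edgeR FDR 0.00283). Fbn1, the other fibrillin and the most abundantly counted gene of the list, had 1836 ± 718 CPM in controls and 1877 ± 283 CPM (SD, n = 4 each) after injury and a log2 fold change of 0.03. Thbs1, a matricellular protein that can activate latent TGF-beta, rose by 2.14 (SE 0.58, edgeR FDR 0.04005), from 32.4, 105, 27.3 and 20.02 CPM in controls 1 to 4 to 119.9, 349, 163 and 179.9 CPM in injured arteries 1 to 4. Among the 8 fits with 1 artery removed, it was called without control 2 and without control 4 and not in the other 6, with a log2 fold change of 1.74 to 2.93. Nrros, which anchors latent TGF-beta1 on macrophages and microglia, rose from 15.5 ± 3.33 to 35.8 ± 4.47 CPM (SD, n = 4 each), a log2 fold change of 1.21, beside the rise of macrophage markers above, whose part in it was not tested. Lrrc32, which anchors latent TGF-beta on regulatory T cells and platelets, had a log2 fold change of -0.26 and was not called. Ltbp4, another latent TGF-beta binding protein, had 1810.5, 1781, 1715 and 703 CPM in controls 1 to 4 and 598 to 960 CPM in injured arteries. Its log2 fold change was -1.02 (edgeR FDR 0.0631) and, without control artery 4, -1.26 (edgeR FDR 0.00145). DESeq2 called Ltbp4 downregulated with all arteries (-1.04, DESeq2 FDR 0.00824). It also called the integrin subunits Itgb8 (1.27, DESeq2 FDR 0.0418) and Itgb6 (2.45, DESeq2 FDR 0.0218) upregulated. Itgb8 was not called by edgeR with all arteries (FDR 0.126), and Itgb6, with at most 20 counts, had too few reads for edgeR. The choice to name Lrrc32, Ltbp4, Itgb8 and Itgb6 was made with their values known.

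Of the other activin-type ligands and antagonists, 6 of 10 had enough reads. Of these, 2 were upregulated and 1 downregulated, against 8.31% and 2.57% of all genes tested. Inhbb, the subunit of activin B, had 11, 9, 16 and 10 counts in controls 1 to 4 and 98, 190, 110 and 156 counts in injured arteries 1 to 4. It was 11.4-fold higher after injury, the largest change among the ligands examined here, with a log2 fold change of 3.52 (SE 0.38, edgeR FDR 0.000949). Gdf11, a related ligand of activin receptors, rose from 13.7 ± 1.02 CPM to 29.4 ± 3.48 CPM (SD, n = 4 each), a log2 fold change of 1.10 (SE 0.13, edgeR FDR 0.00139). Inhbb and Gdf11 were called whichever of the 8 arteries was removed. Fstl3, a secreted protein that binds and neutralizes activins, had 100.05, 107, 118 and 63.0 CPM in controls 1 to 4 and 36.5, 37.6, 53.5 and 59.4 CPM in injured arteries. It fell by 1.05 on the log2 scale (SE 0.24, edgeR FDR 0.0202), with the highest injured artery just below control artery 4. Its call was lost when control 1, 2 or 3 or injured artery 1 or 2 was removed (log2 fold changes of -1.22 to -0.95 over the 8 such fits). The call of Fstl3 was also lost with upper-quartile scaling and with library totals only. Fst, which encodes follistatin, the other activin antagonist, had 20.4 ± 3.97 CPM in controls and 21.5 ± 2.32 CPM (SD, n = 4 each) in injured arteries. Its log2 fold change was 0.08 (SE 0.17). Mstn, Nodal, Inhbc and Inhbe were listed at 0 in all 8 libraries.

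None of the 8 tested type I, type II and accessory receptors beside the 3 members was called by edgeR or by DESeq2, and 0 had an unadjusted p under 0.05 in edgeR (lowest FDR 0.366). Acvrl1, an endothelial type I receptor and the most abundantly counted of them, had 261 ± 82.5 CPM in controls and 245 ± 33.4 CPM (SD, n = 4 each) after injury. Their median log2 fold change was -0.13.

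Of 16 SMADs and regulators, 1 was upregulated and none downregulated, where 8.31% of all genes tested were called upward and 2.57% downward. Tgif1, a transcriptional corepressor of SMAD2 and SMAD3, rose from 7.43 ± 2.24 CPM to 21.3 ± 2.97 CPM (SD, n = 4 each), a log2 fold change of 1.52 (SE 0.25, edgeR FDR 0.00576), and was called whichever artery was removed. For Smad2, Smad3 and Smad4 the log2 fold changes were 0.12 (SE 0.23), 0.24 (SE 0.30) and -0.03 (SE 0.12). Smad4 had 49.3 ± 6.66 CPM in controls and 48.3 ± 2.75 CPM (SD, n = 4 each) after injury. Pmepa1, a TGF-beta-induced inhibitor of the pathway and the most abundantly counted of the list, had 365 ± 116 CPM and 369 ± 23.9 CPM (SD, n = 4 each) and a log2 fold change of 0.02. These are mRNA levels and do not measure phosphorylated SMADs.

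Genes often used as readouts of TGF-beta moved in both directions. Of 15 tested genes, 3 were upregulated and 4 downregulated, against 8.31% and 2.57% of all genes tested. The matrix proteins Postn and Tgfbi rose by 3.13 (SE 0.35) and 1.41 (SE 0.18), and the cell cycle inhibitor Cdkn2b by 3.61 (SE 0.36) on the log2 scale. Postn was at 186 ± 57.1 CPM in controls and 1635 ± 622 CPM (SD, n = 4 each) after injury, and Cdkn2b at 0.762 to 1.23 CPM in controls and 7.28 to 18.2 CPM after injury. Contractile genes of VSMCs fell, Cnn1 by 1.69 (SE 0.35) and Tagln by 1.36 (SE 0.36), and Tgm2, a transglutaminase, by 1.37 (SE 0.30). The fourth was Acta2, smooth muscle actin, with a log2 fold change of -1.34, named after its value was seen. Control artery 4 was below the other controls for all 4 of these genes, and its smooth muscle marker sum of 17429 CPM was near the highest injured artery. Tagln and Acta2 lost their calls when any artery other than control 4 was removed, Tgm2 when control 2 or injured artery 2 was, and Cnn1 when injured artery 4 was. In the 8 fits with 1 artery removed the log2 fold changes stayed negative, from -1.60 to -1.16 for Tagln, -1.56 to -1.22 for Acta2, -1.60 to -1.27 for Tgm2 and -1.92 to -1.49 for Cnn1. The lowest value of each is the one without control artery 4. Col3a1, the most abundantly counted readout, had a log2 fold change of -0.16 and Col1a1 one of -0.22, and neither was called. Timp1 was listed at 0 in all 8 libraries and was not compared. For the 7 called readouts the edgeR FDR lay between 0.00066 and 0.0348.

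**Figure D4:**
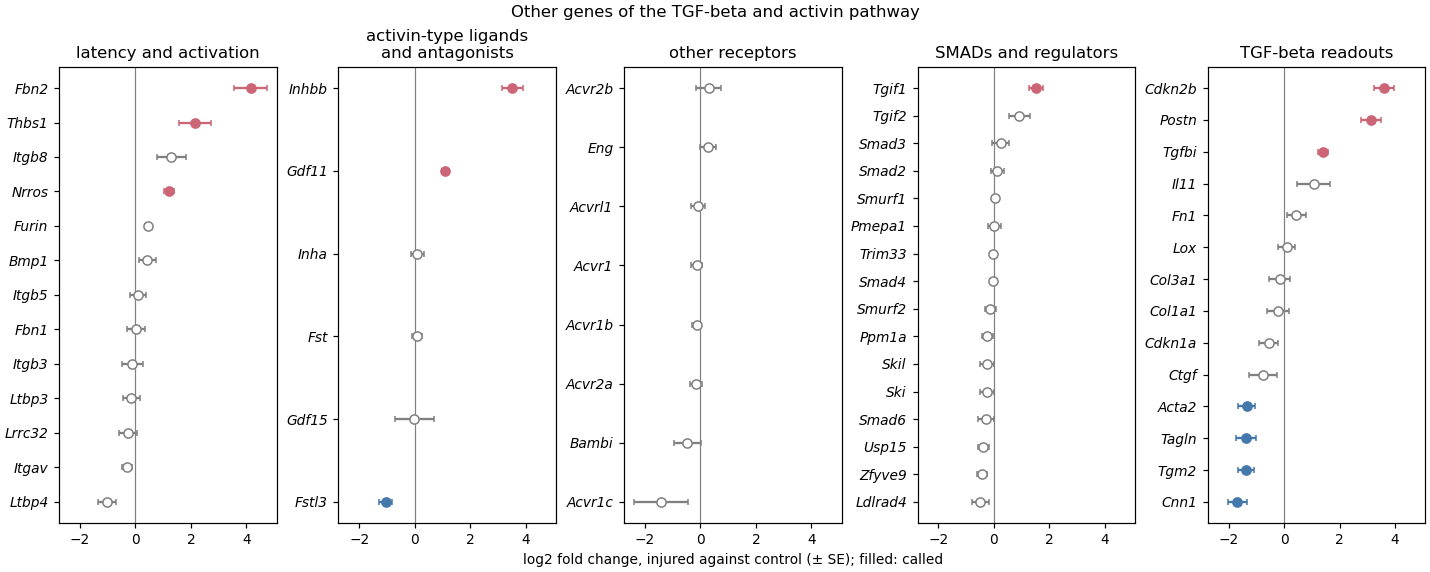
Log2 fold change (horizontal axis, ± standard error) of the tested pathway genes in 5 lists, 1 of them not shown, with upregulated genes in filled red, downregulated genes in filled blue and genes that were not called as open circles. Called genes lie at both ends among the readouts, and no other receptor is called.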

How the data were processed

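mRNA was sequenced from 4 injured and 4 control carotid arteries. The authors deposited raw read counts per gene symbol, and the submitters' processing notes name HISAT2 2.0.4, while the counting tool, build and strand setting are not given in the sources used here. Counts were not changed. With edgeR 4.0.16 (limma 3.58.1) in R 4.3.3, filterByExpr and TMM factors were applied, and the quasi-likelihood test was fitted across all 14359 genes without covariates. DESeq2 1.42.0 was an alternative. CPM values use the TMM factors, and log2 CPM a prior count of 2. Ratios added 0.5 to each count. Standard errors of log2 fold changes come from the F statistic.

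The members and lists were chosen with earlier results of these data known. Named genes are the 10 members, the called genes of each list (the 3 largest rises and falls where over 5 were called), its most abundantly counted gene, Fst, Fstl3, Smad2, Smad3, Smad4, and the 3 genes nearest to the members with the largest rise and fall. Other lists were matched by symbol and then by synonyms of GRCr8 (Ctgf and Emr1). The study's methods call replicates biological, and the labels do not say which injured and control arteries came from the same rat. In GRCr8, Tgfb2, Tgfbr3 and Ltbp1 overlap uncharacterized genes that the table does not list, and without a stated strand setting their reads cannot be told apart. The values of 1 pathway gene are not reported here. Alternatives were other scalings and filters, other thresholds, the replicate block and each artery left out.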

Additional observations from a re-analysis of the deposited data

Results flagged for a closer look

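Among 56 groups of 4 arteries (28 genes in 2 groups), 2 held an artery set apart from the other 3 by Dixon's test at the 95% level, and chance alone would set apart about 2.8 (1 in 20). For Thbs1, control artery 2 had 105 CPM and the next control 32.4 CPM, a gap that was 0.854 of the range of the group. For Tgm2, control artery 4 had 521 CPM and the next control 1171 CPM, a gap of 0.861 of the range. None of the 10 members was among these 2 groups. The 28 genes did not include Ltbp4 and Acvrl1, for which control artery 4 had 703 and 138 CPM and every other control at least 1715 and 294 CPM. The groups also share arteries and are not independent, so these counts do not measure how often control artery 4 stood apart.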

How the results depend on the processing

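No log2 fold change of a member changed its sign under an alternative that was run. Of the 8 ratios, Inhba to Fst changed sign without control artery 4 (-0.12) and Tgfbr1 to Tgfbr2 without injured artery 1 (0.03). Tgfb1 was called in the 8 fits that left out 1 artery and in 11 of 12 other alternatives, with a log2 fold change from 1.26 to 1.57. With the FDR alone, 2 members (Tgfb1 and Tgfbr2) and 2468 genes were called, and tested against a fold change of 2, 0 members (1 at an unadjusted p under 0.05, lowest edgeR FDR 0.082), 4 pathway genes and 661 genes. With at least 10 counts in every library, 1007 genes were called. With control 4 and injured 3 left out, added after seeing the data, 2473 genes were called. With 1 artery left out, the number of genes ranged from 1142 to 2398 (the highest without control artery 4) and that of pathway genes from 9 (without injured artery 2) to 17 (without control artery 4). Library totals only moved the median of all genes from -0.06 to 0.12 on the log2 scale.

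The same replicate numbers do not by themselves pair the arteries. Across genes, the departures from the group mean of arteries sharing a number had correlations of 0.301, 0.45, -0.52 and -0.416. With the replicate block, 1187 genes, 11 pathway genes and 1 member (Tgfb1, log2 fold change 1.41, edgeR FDR 0.0158) were called, Fstl3, Tagln, Tgm2 and Acta2 not among them, and Tgfbr2 had an edgeR FDR of 0.0545. An exact permutation test by sign flips within the numbers cannot go below p = 0.125 for the ratios. The cause of these differences was not tested.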

Other observations

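Some genes of the pathway divided the injured arteries in the same way, which was noticed after the values were seen and was not tested. Ltbp2 had 1604 and 1522 CPM in injured arteries 2 and 4 and 838 and 953 CPM in injured arteries 1 and 3. Postn was at 2436 and 1820 CPM in arteries 2 and 4 and at 1169 and 1117 CPM in arteries 1 and 3, and Inhbb at 13.8 and 12.8 CPM against 5.86 and 6.18 CPM. Tgfbr1, Tgfb2 and Smad7 were also higher in arteries 2 and 4 than in arteries 1 and 3. Tgfbr1 had 103 and 74.0 CPM against 63.4 and 62.3 CPM, and Tgfb2 101 and 78.7 CPM against 56.6 and 65.5 CPM. Smad7 had 78.1 and 71.8 CPM against 55.7 and 54.1 CPM. Tgfbr3 had the opposite order, with 85.7 and 115.9 CPM in arteries 2 and 4 and 169 and 194 CPM in arteries 1 and 3. The summed level of 7 cartilage markers was 404 and 333 CPM in arteries 2 and 4 and 121 and 129 CPM in arteries 1 and 3, whereas every control had at most 21.6 CPM. Tgfb1 had the same order as Ltbp2 with a smaller gap, at 122 and 124 CPM in arteries 2 and 4. In arteries 1 and 3 it had 108 and 111 CPM. Tgfbr2, Tgfb3, Inhba and Ltbp1 did not follow this division, with Tgfbr2 at 512, 464, 457 and 474 CPM in injured arteries 1 to 4.

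Ctgf, a matricellular gene often used as a readout of TGF-beta, was not called and is named after its values were seen. It had 6957, 5284, 2605 and 1548 CPM in controls 1 to 4 and 3402, 3081, 1509.8 and 1738 CPM in injured arteries 1 to 4. In both groups, arteries 1 and 2 lay above arteries 3 and 4. Its log2 fold change was -0.75 (SE 0.50, edgeR FDR 0.348).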
